A study of Mus musculus with 11 samples.

Results

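The 8 genes described here were chosen for their part in the cells of the colon's muscle layers that set and relay its rhythm. Kit, Ano1, Etv1 and Cacna1h stand for the interstitial cells of Cajal (ICC), Kitl is the ligand of the KIT receptor, and Pdgfra, Kcnn3 and P2ry1 stand for the PDGFRA-positive cells that lie beside them. They were taken by gene symbol, and the values of their 61 transcripts were summed per Ensembl gene, which gave 8 of the 35683 genes in the table. All 8 were among the 15079 genes tested, since each had an abundance of at least 1 in at least 5 libraries.

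Libraries were made from the whole wall of the colon of mice aged 2 weeks, 5 wild type and 6 Tnfr1-/-. Tnfr1 is the receptor for tumour necrosis factor that the gene Tnfrsf1a encodes. The labels give genotype, age and tissue, but not sex, strain, litter, segment of the colon, batch, or how the Tnfr1 allele was made. The samples are taken as 1 mouse each, and p-values measure only the spread between these samples. Values are TPM divided by a size factor per library, called abundance below, so levels can be compared between genes per length of transcript.

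ICC are the pacemakers of the gut: they generate slow waves, which spread through gap junctions to the smooth muscle. KIT signalling keeps them alive and differentiated, the ETS transcription factor ETV1 works downstream of KIT, and calcium released from internal stores opens the chloride channel ANO1 in their membrane. The T-type calcium channel encoded by Cacna1h takes part in spreading the wave. PDGFRA-positive cells, which are fibroblast-like, answer purines released by inhibitory nerves through the receptor P2RY1, and the calcium-activated potassium channel KCNN3 (SK3) then hyperpolarises the syncytium. Full-thickness colon also holds PDGFRA-positive cells under the epithelium, and KIT is present on some cells outside the ICC. In such bulk tissue, fewer cells of a type and less RNA per cell cannot be told apart.

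As the check of the labels, Tnfrsf1a was at 67.1 ± 5.04 (SD, n = 5) in wild type and 22.4 ± 3.54 (SD, n = 6) in Tnfr1-/- colon, and it was the 1 gene called among the 15079 (limma adjusted p = 8.5e-05). Estimated depth was 27.6 to 42.1 M reads per library, and the library with the fewest reads for a gene held from 459 reads (Kcnn3) to 5311 (Kitl). Wild-type libraries 1 and 2 stood apart in their makeup: they had the 2 highest sums of epithelial markers (8197 and 8879, others 4939 to 6696) and the 2 lowest of fibroblast markers (1797 and 1774, others 2185 to 3963). Results that rest on them are given with and without them, apart from shares of transcripts, which are given only with all 11 libraries.

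None of the 8 genes passed the test for a difference between Tnfr1-/- and wild-type colon. By limma, 0 of 8 passed an adjusted p of 0.05, against 0.00663% of all genes tested, and 0 of 8 had an unadjusted p under 0.05, against 9.37% of all genes tested. The groups overlapped for all 8, which is near the background, since they did not overlap for only 1.49% of all genes tested. The median log2 difference of the 8 was -0.05, beside -0.01 over all genes tested, with 6 of the 8 lower in Tnfr1-/- colon and 7855 of 15079 lower over all genes. The plot of differences shows how wide each interval was.

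**Figure D1:**
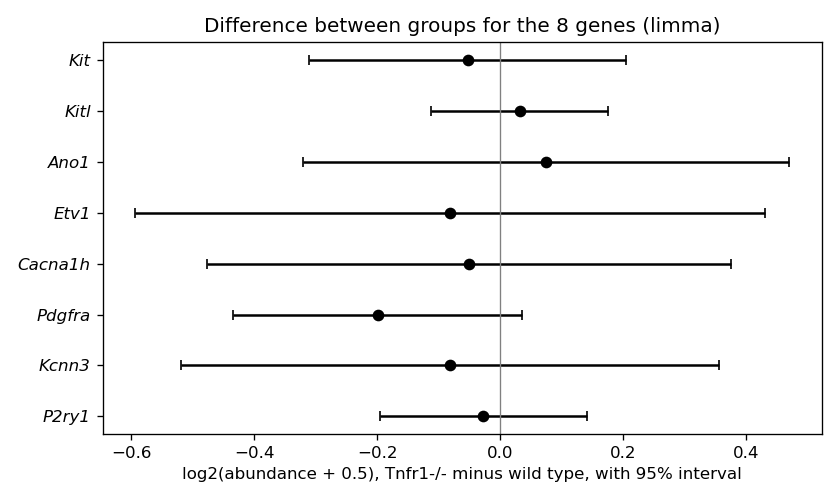
Difference in log2(abundance + 0.5) between 6 Tnfr1-/- and 5 wild-type colons for each of the 8 genes (x axis), with the limma estimate as a point and its 95% interval as a bar. Every interval includes 0, and the narrowest belongs to Kitl (-0.11 to 0.18).

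By mean abundance over the 11 libraries the order was Ano1 (51.1 ± 11.0, SD), Kitl (43.0 ± 3.20), P2ry1 (19.9 ± 1.66), Kit (19.4 ± 2.58), Pdgfra (16.4 ± 2.61), Cacna1h (9.97 ± 2.31), Etv1 (8.69 ± 2.41) and Kcnn3 (4.74 ± 1.19). Neighbours in this order had ranges that lay apart only for Kitl above P2ry1 and for Pdgfra above Cacna1h. Kitl was above P2ry1 by a factor of 2.16, and Pdgfra above Cacna1h by 1.65. P2ry1 was above Kit in 7 of 11 libraries, so these neighbours did not differ beyond their spread. Etv1 was above Kcnn3 within each of the 11 libraries although the ranges of these genes overlapped.

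The genes differed in how much they varied among mice of 1 genotype. The within-group SD of the log2 values was 0.42 for Etv1, 0.36 for Kcnn3, 0.35 for Cacna1h, 0.33 for Ano1, 0.21 for Kit, 0.19 for Pdgfra, 0.13 for P2ry1 and 0.11 for Kitl. Among tested genes of like abundance, Ano1 stood at the 92.6th percentile of this SD, Etv1 at the 90.4th and Cacna1h at the 86.7th. Kitl, at the 39.7th, and P2ry1, at the 46.7th, varied less than the median gene of their level. Counting error was at most 4.67% of a value, so it was small beside the spread of the more variable genes.

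**Figure D2:**
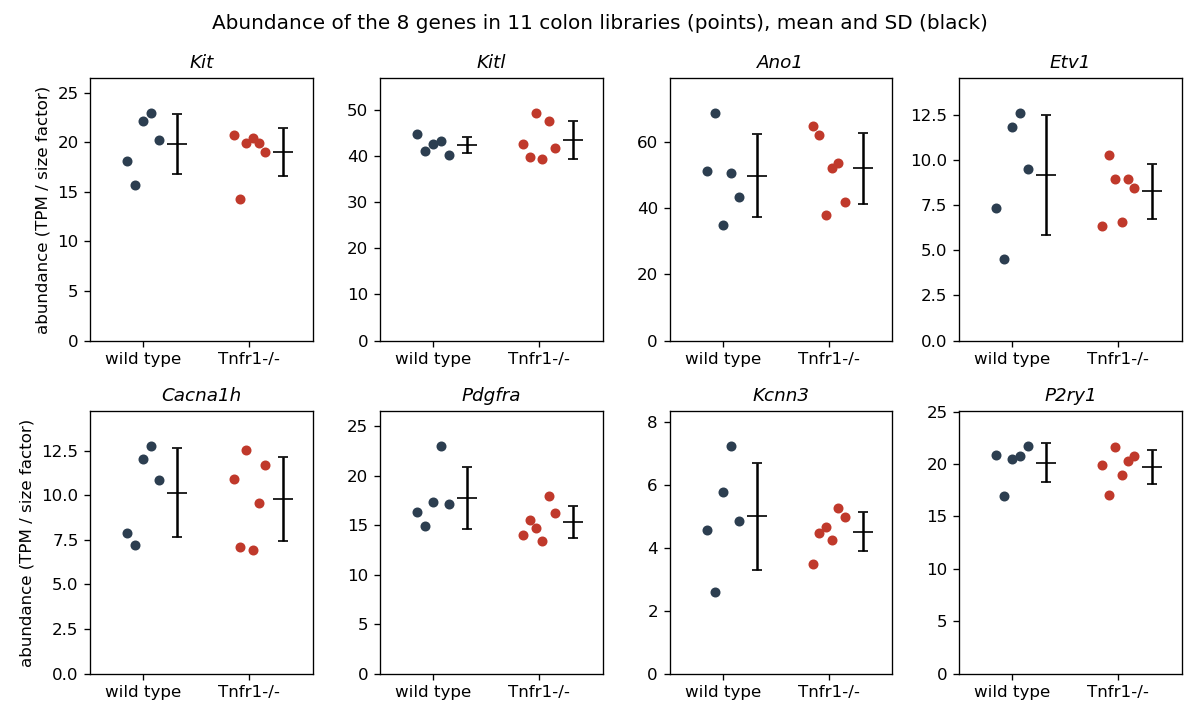
Abundance (TPM divided by a size factor, y axis from 0) of each gene in 5 wild-type and 6 Tnfr1-/- colon libraries, 1 point per library, with the group mean and SD in black. The groups overlap in all 8 panels; Kitl and P2ry1 have the tightest groups, and the wild-type points of Etv1 run from 4.52 to 12.7.

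Kitl encodes stem cell factor, the ligand that KIT-bearing cells depend on, and lies at chr10:100015630-100100416 on the plus strand (GRCm38, GENCODE M21, as for the other genes). Its abundance was 44.7, 41.1, 42.6, 43.3 and 40.1 in wild-type libraries 1 to 5, and in the 6 Tnfr1-/- libraries it ran from 39.5 to 49.5 with a median of 42.2. The wild-type values lay inside the Tnfr1-/- range. The means were 42.4 ± 1.80 (SD, n = 5) in wild type and 43.5 ± 4.16 (SD, n = 6) in Tnfr1-/- colon, a log2 difference of 0.03 (SE 0.07, 95% interval -0.11 to 0.18, limma adjusted p = 0.923). A difference of more than 1.13-fold up or below 0.925-fold lies outside that interval. Without wild-type libraries 1 and 2 the log2 difference was 0.04 (limma adjusted p = 0.814). Of Kitl, 95.8% was the full coding transcript ENSMUST00000105283.8. Transcript ENSMUST00000020129.7 lacks exon 6 of that transcript, which codes for the region where the membrane-bound ligand is cleaved to release its soluble form. The exon is shown because it separates these forms, at chr10:100080857-100080940, plus strand, with all 84 bases in capitals, read from the GENCODE M21 transcript.
Kitl exon 6: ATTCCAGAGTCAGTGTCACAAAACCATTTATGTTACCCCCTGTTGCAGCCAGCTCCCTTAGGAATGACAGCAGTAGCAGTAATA
The form without the exon made up 2.57% ± 1.55 (SD, n = 5) of the pair in wild type and 3.53% ± 1.17 (SD, n = 6) in Tnfr1-/- colon, with a range of 0.884% to 4.99% over the 11 libraries. The groups overlapped, and the difference was within their spread (two-sided exact permutation test p = 0.273, adjusted over 3 such shares 0.424).

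Kit encodes the receptor for that ligand and is the defining marker of ICC, at chr5:75574916-75656722 on the plus strand. Its abundance was 18.1, 15.7, 22.1, 23.0 and 20.2 in wild-type libraries 1 to 5, and in the 6 Tnfr1-/- libraries it ran from 14.3 to 20.8 with a median of 19.9. Tnfr1-/- library 2, at 14.3, was the lowest of all 11, and the other 5 Tnfr1-/- libraries lay within 19.0 to 20.8. The means were 19.8 ± 3.00 (SD, n = 5) in wild type and 19.0 ± 2.40 (SD, n = 6) in Tnfr1-/- colon, a log2 difference of -0.05 (SE 0.12, 95% interval -0.31 to 0.21, limma adjusted p = 0.930). Without Tnfr1-/- library 2 that difference was 0.03, and without wild-type libraries 1 and 2 it was -0.20 (limma adjusted p = 0.417), so its sign rested on single libraries.

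Full-length Kit RNA comes in a form with and a form without 12 bases at the end of exon 9 of 21, in the part of the receptor outside the membrane. They are shown with 24 bases of the transcript on either side, the 12 bases in capitals, at chr5:75639147-75639158, plus strand, from GENCODE M21.
Kit, exon 9 to 10: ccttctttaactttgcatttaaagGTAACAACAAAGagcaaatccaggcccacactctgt
ENSMUST00000005815.6 holds the 12 bases and ENSMUST00000144270.7 joins the flanks without them. The form with the bases made up 52.3% ± 17.9 (SD, n = 5) of this pair in wild type and 43.2% ± 10.1 (SD, n = 6) in Tnfr1-/- colon. Wild-type library 1, at 79.4%, was the highest and wild-type library 2, at 31.9%, the lowest, so the wild-type group spanned the whole range (two-sided exact permutation test p = 0.312, adjusted over 3 shares 0.424). The most abundant Kit transcript was ENSMUST00000202167.1, of 5 exons at the 3′ end with a retained intron, which held 44.4% of the gene on average and from 30.9% to 56.0% by library. Most bases of the 2 coding forms are the same, so their shares rest on how the authors' tool assigned shared reads.

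Kit is also found on mast cells and melanocytes and may be held by deep crypt secretory cells, and markers of those cells were read beside it. The sum of 3 deep crypt secretory markers was 2638 to 4317 in wild type and 2649 to 4036 in Tnfr1-/- colon. Its relation to Kit was not tested. The sum of 11 mast cell markers was 17.4 to 32.3 in wild type and 15.6 to 33.5 in Tnfr1-/- colon. Of these markers, Tpsab1 and Fcer1a were below 0.1 in every library, and Kit did not follow the sum (r = 0.07 over 11 libraries, adjusted permutation p = 0.939; Spearman's rho = 0.25, adjusted p = 0.609). The sum of 5 melanocyte markers was 51.0 in Tnfr1-/- library 6, 18.4 in Tnfr1-/- library 4 and 12.2 in wild-type library 3, and 3.20 to 5.49 in the other 8. None of the 5 was below 0.1 in all libraries, and Dct, an enzyme of melanin synthesis, reached 18.8 in Tnfr1-/- library 6. Kit in that library was 19.0, below the Tnfr1-/- median, and the relation of Kit to the melanocyte sum was not tested.

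Etv1, the transcription factor of ICC, lies at chr12:38779380-38870484 on the plus strand. Its abundance was 7.38, 4.52, 11.8, 12.7 and 9.53 in wild-type libraries 1 to 5, and in the 6 Tnfr1-/- libraries it ran from 6.33 to 10.3 with a median of 8.71. Wild-type library 2, at 4.52, was the lowest of the 11 and wild-type library 4, at 12.7, the highest, so all Tnfr1-/- values lay inside the wild-type range. The means were 9.19 ± 3.32 (SD, n = 5) in wild type and 8.27 ± 1.53 (SD, n = 6) in Tnfr1-/- colon, a log2 difference of -0.08 (SE 0.23, 95% interval -0.59 to 0.43, limma adjusted p = 0.949). Without wild-type libraries 1 and 2 the difference was -0.44 (limma adjusted p = 0.228). Most of Etv1, 82.2%, was the coding transcript ENSMUST00000095767.10.

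Cacna1h, the T-type calcium channel, lies at chr17:25374285-25433783 on the minus strand. Its abundance was 7.91, 7.19, 12.1, 12.8 and 10.9 in wild-type libraries 1 to 5, and in the 6 Tnfr1-/- libraries it ran from 6.93 to 12.5 with a median of 10.3. Low libraries occurred in both groups: wild-type 1 and 2 and Tnfr1-/- 2 and 4 were at 6.93 to 7.91, and the others were at 9.59 to 12.8. The means were 10.2 ± 2.49 (SD, n = 5) in wild type and 9.80 ± 2.36 (SD, n = 6) in Tnfr1-/- colon, a log2 difference of -0.05 (SE 0.19, 95% interval -0.48 to 0.38, limma adjusted p = 0.963). Without wild-type libraries 1 and 2 the difference was -0.30 (limma adjusted p = 0.464). The full-length coding transcript ENSMUST00000159610.7 held 39.1% of the gene on average, and transcripts that retain an intron or are marked for decay held much of the rest. One of them, ENSMUST00000162820.1, had the smallest unadjusted p among the 20 member transcripts tested, with a log2 difference of -0.61 (SE 0.30, limma unadjusted p = 0.0687, adjusted p = 0.635).

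Ano1, the calcium-activated chloride channel whose current underlies the slow wave, lies at chr7:144588549-144751974 on the minus strand. Its abundance was 51.2, 69.0, 35.1, 50.6 and 43.3 in wild-type libraries 1 to 5, and in the 6 Tnfr1-/- libraries it ran from 38.0 to 64.8 with a median of 53.1. Wild-type library 2 was the highest of the 11, at 69.0, although it was the lowest for Etv1 and Kcnn3 and the second lowest for Kit. The means were 49.8 ± 12.5 (SD, n = 5) in wild type and 52.2 ± 10.7 (SD, n = 6) in Tnfr1-/- colon, a log2 difference of 0.07 (SE 0.18, 95% interval -0.32 to 0.47, limma adjusted p = 0.938). Without wild-type libraries 1 and 2 the difference was 0.27 (limma adjusted p = 0.496). The transcripts ENSMUST00000121758.7 and ENSMUST00000152531.7 held 72.0% and 23.0% of the gene. Relative to Kit, Ano1 ran from 1.59-fold in wild-type library 3 to 4.41-fold in wild-type library 2.

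Pdgfra encodes the receptor that gives the PDGFRA-positive cells their name and is a neighbour of Kit, at chr5:75152292-75198215 on the plus strand, 0.377 Mb before the start of Kit. Its abundance was 16.4, 14.96, 17.3, 23.1 and 17.1 in wild-type libraries 1 to 5, and in the 6 Tnfr1-/- libraries it ran from 13.4 to 17.9 with a median of 15.1. Wild-type library 4, at 23.1, was the highest of the 11, and 3 of the 6 Tnfr1-/- values were below every wild-type value. The means were 17.8 ± 3.10 (SD, n = 5) in wild type and 15.3 ± 1.63 (SD, n = 6) in Tnfr1-/- colon. With all 11 libraries the log2 difference was the largest of the 8 in size, -0.20 (SE 0.11, 95% interval -0.44 to 0.04, limma adjusted p = 0.601), with an unadjusted p of 0.0896 by limma. It ranged from -0.31 without wild-type libraries 1 and 2 (limma adjusted p = 0.243) to -0.10 without wild-type library 4 (limma adjusted p = 0.645). Nearly all of Pdgfra, 95.1%, was the coding transcript ENSMUST00000000476.14.

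P2ry1, the purine receptor, lies at chr3:61002795-61008982 on the plus strand. Its abundance was 20.8, 16.9, 20.4, 20.8 and 21.8 in wild-type libraries 1 to 5, and in the 6 Tnfr1-/- libraries it ran from 17.0 to 21.6 with a median of 20.1. Wild-type library 2 and Tnfr1-/- library 2 were the lowest of their groups, and the other 9 libraries were at 18.9 to 21.8. The means were 20.1 ± 1.87 (SD, n = 5) in wild type and 19.7 ± 1.61 (SD, n = 6) in Tnfr1-/- colon, a log2 difference of -0.03 (SE 0.08, 95% interval -0.20 to 0.14, limma adjusted p = 0.947). Without wild-type libraries 1 and 2 it was -0.09 (limma adjusted p = 0.564). Its 3 transcripts have the same coding length, 1119 bases, and held 45.4%, 36.1% and 18.4% of the gene.

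Kcnn3, the potassium channel SK3 through which P2RY1 acts, lies at chr3:89520164-89675132 on the plus strand. Its abundance was 4.57, 2.60, 5.76, 7.25 and 4.85 in wild-type libraries 1 to 5, and in the 6 Tnfr1-/- libraries it ran from 3.49 to 5.26 with a median of 4.57. The extremes were again wild type, library 2 at the bottom and library 4 at the top. The means were 5.00 ± 1.70 (SD, n = 5) in wild type and 4.52 ± 0.619 (SD, n = 6) in Tnfr1-/- colon, a log2 difference of -0.08 (SE 0.20, 95% interval -0.52 to 0.36, limma adjusted p = 0.940). Without wild-type libraries 1 and 2 it was -0.36 (limma adjusted p = 0.265). Of Kcnn3, 79.0% was assigned to ENSMUST00000124584.3, a transcript of 2 exons with a retained intron, and the coding transcript ENSMUST00000000811.7 made up 21.7% ± 2.78 (SD, n = 5) in wild type and 20.4% ± 3.29 (SD, n = 6) in Tnfr1-/- colon (two-sided exact permutation test p = 0.424, adjusted 0.424).

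At the level of transcripts, 0 of the 20 member transcripts tested passed an adjusted p of 0.05 by limma, against 0.00901% of all 33294 tested, and 0 had an unadjusted p under 0.05, against 8.26% of all. The authors' deposited table gives a test for 31 of the 61 member transcripts, of which 2 have p under 0.05 and 0 a q under 0.05, with a smallest q of 1. Over all 49810 transcripts tested there, 4.39% have p under 0.05 and 0.00201% (1 transcript) a q under 0.05.

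To set ICC genes against PDGFRA-positive cell genes within each library, the log2 values of Kit, Ano1, Etv1 and Cacna1h, and of Pdgfra, Kcnn3 and P2ry1, were centred on each gene's mean and averaged. The ICC score was 0.01 ± 0.22 (SD, n = 5) in wild type and -0.01 ± 0.08 (SD, n = 6) in Tnfr1-/- colon on the log2 scale. The PDGFRA-positive score was 0.06 ± 0.27 (SD, n = 5) and -0.05 ± 0.12 (SD, n = 6). The ICC score minus the PDGFRA-positive score was -0.04 ± 0.09 (SD, n = 5) in wild type and 0.03 ± 0.11 (SD, n = 6) in Tnfr1-/- colon, a difference of 0.08 that is smaller than the SD of the Tnfr1-/- group. By library this balance was -0.15, 0.09, -0.02, -0.08 and -0.04 in wild type 1 to 5. In Tnfr1-/- colon it ran from -0.06 to 0.25 with the highest value in library 1, without which the difference between groups was 0.03. Without wild-type libraries 1 and 2 that difference was 0.08. With Ano1 left out of the ICC genes, a setting chosen after the data were seen, the difference was 0.04. The wild-type SD of the ICC score was then 0.38, against 0.22 with Ano1. The ratio of Kit to Pdgfra, which are measured per length, was 0.997 to 1.28 in wild type and 0.920 to 1.52 in Tnfr1-/- colon, so these ranges overlapped too.

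In wild type both scores were lowest in library 2 (-0.27 for ICC, -0.36 for PDGFRA-positive cells) and both highest in library 4 (0.30 and 0.38). The map of deviations shows that Ano1 departed from this pattern.

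**Figure D3:**
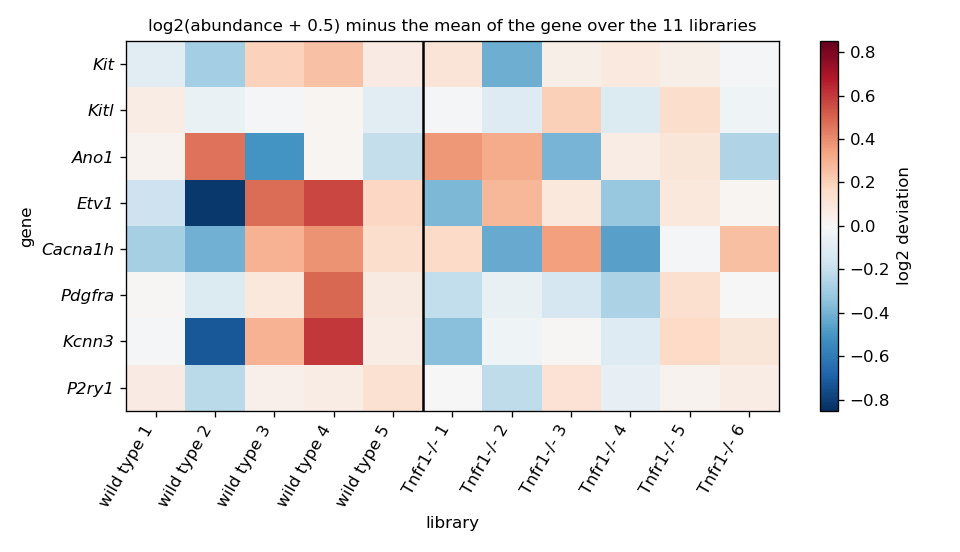
Deviation of log2(abundance + 0.5) from the gene's mean over the 11 libraries (colour, log2 units), with genes as rows and libraries as columns, wild type left of the line and Tnfr1-/- right of it. Wild-type library 2 is low for Etv1 (-0.82) and Kcnn3 (-0.72) and high for Ano1 (0.46), and wild-type library 4 is high for Etv1 (0.57), Kcnn3 (0.60) and Pdgfra (0.49).

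Which of the 8 genes varied together was tested over the 11 libraries with group means removed, in 28 pairs. Kcnn3 went with Etv1, a gene listed here for ICC (r = 0.92, adjusted permutation p = 0.00168, Spearman's rho = 0.83, adjusted p = 0.036). This r was 0.74 without the libraries farthest out, wild type 2 and Tnfr1-/- 1, with group means taken again. Both genes also followed enteric neuron markers, as given below, and which cells they varied in was not tested. Kcnn3 also went with Pdgfra, listed with it for the PDGFRA-positive cells (r = 0.82, adjusted permutation p = 0.034, rho = 0.88, adjusted p = 0.024), with r = 0.76 without wild type 4 and Tnfr1-/- 5. Cacna1h and P2ry1 were the third pair past the threshold by r (r = 0.76, adjusted permutation p = 0.034) but not by rho (0.70, adjusted p = 0.145), and r was 0.69 without Tnfr1-/- 4 and wild type 2. P2ry1, the receptor coupled to SK3, had r = 0.60 with Kcnn3 (adjusted permutation p = 0.128, rho = 0.49, adjusted p = 0.271), and r was 0.14 without wild type 2 and 4. Kit and Etv1, receptor and downstream factor, had r = 0.39 (adjusted permutation p = 0.319, rho = 0.31, adjusted p = 0.451), and r was 0.58 without Tnfr1-/- 2 and wild type 2.

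Of the 28 values of r, 21 were above 0, and the 7 below 0 were the 7 pairs with Ano1. They ran from -0.19 with Pdgfra to -0.73 with P2ry1, and none of the 7 passed the threshold. The number of pairs past it moved with the libraries used: it was 0 without wild-type libraries 1 and 2 (n = 9, exact permutation test), 1 without wild-type library 2 and 10 without Tnfr1-/- library 2. With n = 9, Etv1 and Kcnn3 had r = 0.74 (exact permutation test, adjusted p = 0.225) and Pdgfra and Kcnn3 r = 0.85 (exact permutation test, adjusted p = 0.108).

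The makeup of the tissue was read from sums of marker genes for 7 other cell types, giving 56 relations with the 8 genes. Kcnn3 followed the sum of 10 enteric neuron markers (r = 0.92, adjusted permutation p = 0.00056 from the smallest p that the permutations can give, rho = 0.95, adjusted p = 0.00672), and r was 0.86 without wild type 1 and 2. Kcnn3 also followed fibroblast markers (r = 0.83, adjusted permutation p = 0.0209, rho = 0.83, adjusted p = 0.0502) and ran against epithelial markers (r = -0.82, adjusted permutation p = 0.0129, rho = -0.77, adjusted p = 0.0636). Pdgfra followed fibroblast markers (r = 0.85, adjusted permutation p = 0.0129, rho = 0.85, adjusted p = 0.0502), a cell type that shares Pdgfra expression. Etv1 followed neuron markers (r = 0.85, adjusted permutation p = 0.0129, rho = 0.76, adjusted p = 0.0636) and endothelial markers (r = 0.78, adjusted permutation p = 0.0429, rho = 0.71, adjusted p = 0.0948). Without the 2 libraries farthest out on the marker sum, the fibroblast relations of Kcnn3 and Pdgfra had r = 0.72 and 0.61, the epithelial one of Kcnn3 -0.61, and those of Etv1 0.45 and 0.69. These were the 6 of 56 relations past the threshold by r. With smooth muscle markers the largest r belonged to Kcnn3 (r = 0.74, adjusted permutation p = 0.0560, rho = 0.53, adjusted p = 0.244). Pdgfra came next (r = 0.69, adjusted permutation p = 0.0650, rho = 0.46, adjusted p = 0.308). Without wild type 4 and 2 these values of r were 0.0009 and -0.05. None of the 56 passed without wild-type libraries 1 and 2 (n = 9, exact permutation test), and 2 passed when group means were left in.

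Ano1 again ran the other way, with r = 0.73 against epithelial markers and -0.72 against neuron markers, which missed the threshold (adjusted permutation p = 0.0511 and 0.0532; rho = 0.77 and -0.71, adjusted p = 0.0636 and 0.0948). Without wild type 1 and 2 these were 0.60 and -0.52. Between the groups, epithelial marker sums were 6797 ± 1638 (SD, n = 5) in wild type and 5766 ± 668 (SD, n = 6) in Tnfr1-/- colon, and neuron sums 177 ± 60.05 and 144 ± 20.9. The part of these differences in makeup in the values of the 8 genes was not tested.

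**Figure D4:**
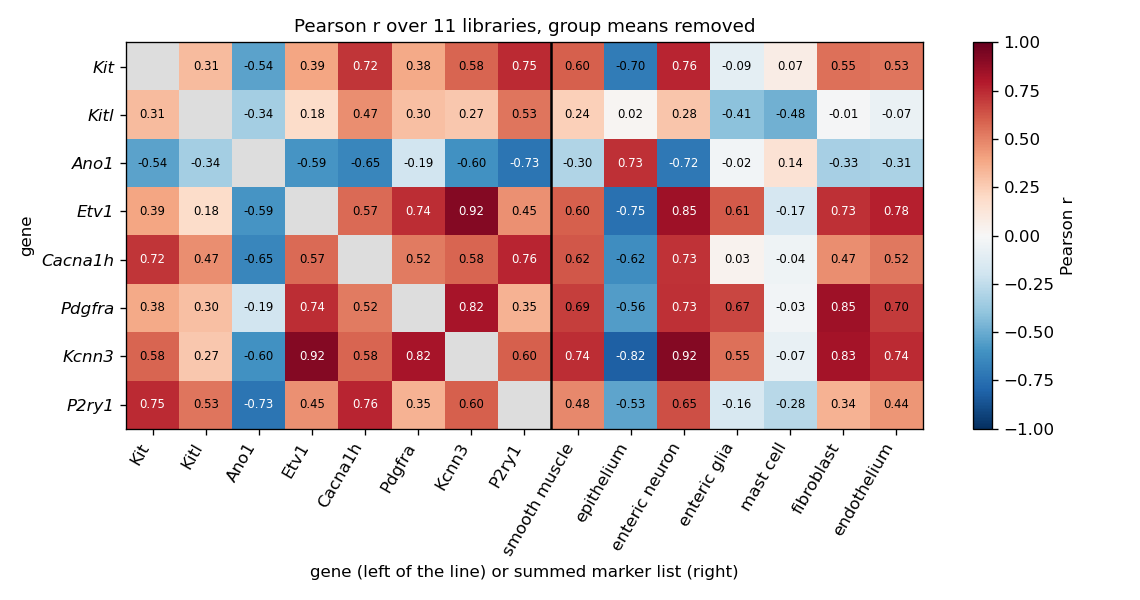
Pearson r over 11 libraries with group means removed (colour and printed value), for each of the 8 genes (rows) against the other 7 genes (left of the line) and against log2 sums of 7 marker lists (right). The Ano1 row is negative against all 7 other genes. Kit, Etv1, Cacna1h, Pdgfra, Kcnn3 and P2ry1 are positive with neuron, fibroblast and endothelial markers.

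A further 112 relations, a family chosen after the data were seen, set the 8 genes against 6 genes of colon identity and 8 tested genes of a list of other ICC genes. Of these, 8 passed the threshold by r and 4 of the 8 by rho as well. Ano1 followed Thbs4, a matrix protein gene from the list of other ICC genes (r = 0.96, adjusted permutation p = 0.00168, rho = 0.99, adjusted p = 0.00112), with r = 0.97 without wild type 2 and Tnfr1-/- 2. Ano1 also followed Hoxb13, a homeobox gene of the hindgut that is most active at the distal end (r = 0.92, adjusted permutation p = 0.00597, rho = 0.94, adjusted p = 0.00336), with r = 0.89 without the same libraries. Hoxb13 was 67.4, 92.4, 46.8, 51.9 and 60.3 in wild-type libraries 1 to 5 and 49.5 to 109 in Tnfr1-/- colon, and the library with the lowest Ano1, wild type 3, had the lowest Hoxb13. Ano1 had r = 0.50 with Hoxd13 (adjusted permutation p = 0.259) and 0.68 with Gpr20, an ICC receptor (adjusted permutation p = 0.0993), with rho = 0.57 and 0.76 (adjusted p = 0.218 and 0.111). Without the 2 libraries farthest out these values of r were 0.16 and 0.49. The rest of the list of other ICC genes had r below 0 with Ano1. These were Cd44 (-0.68), Gjc1 (-0.66), Gja1 (-0.60), Tacr1 (-0.58), Prkcq (-0.23) and Elovl6 (-0.18), and none of them passed the threshold. Ano1 thus did not follow that list as a whole.

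Kcnn3 followed Gjc1, a gene of the list of other ICC genes that encodes the gap junction protein connexin 45 (r = 0.95, adjusted permutation p = 0.00168, rho = 0.87, adjusted p = 0.0207), with r = 0.77 without wild type 2 and 4. Kit ran against Car1, a carbonic anhydrase of the colon epithelium (r = -0.80, adjusted permutation p = 0.0438, rho = -0.89, adjusted p = 0.0187), with r = -0.55 without wild type 4 and Tnfr1-/- 2. The relations past the threshold by r alone were all with the list of other ICC genes. They were Tacr1 with Kcnn3 (r = 0.85, adjusted permutation p = 0.0179), and Gjc1 and Cd44 with Etv1 (r = 0.84 and 0.81, adjusted permutation p = 0.0390 and 0.0422). The last was Thbs4 against P2ry1 (r = -0.79, adjusted permutation p = 0.0468). Without the 2 libraries farthest out these values of r were 0.66, 0.47, 0.70 and -0.38. With wild-type libraries 1 and 2 left out (n = 9, exact permutation test), only Ano1 with Thbs4 passed of the 112 (r = 0.94, adjusted p = 0.0306). Ano1 with Hoxb13 then had r = 0.88 (exact permutation test, adjusted p = 0.0991). The dissected length and position of each colon are not in the labels, so their part in the level of Ano1 was not tested.

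**Figure D5:**
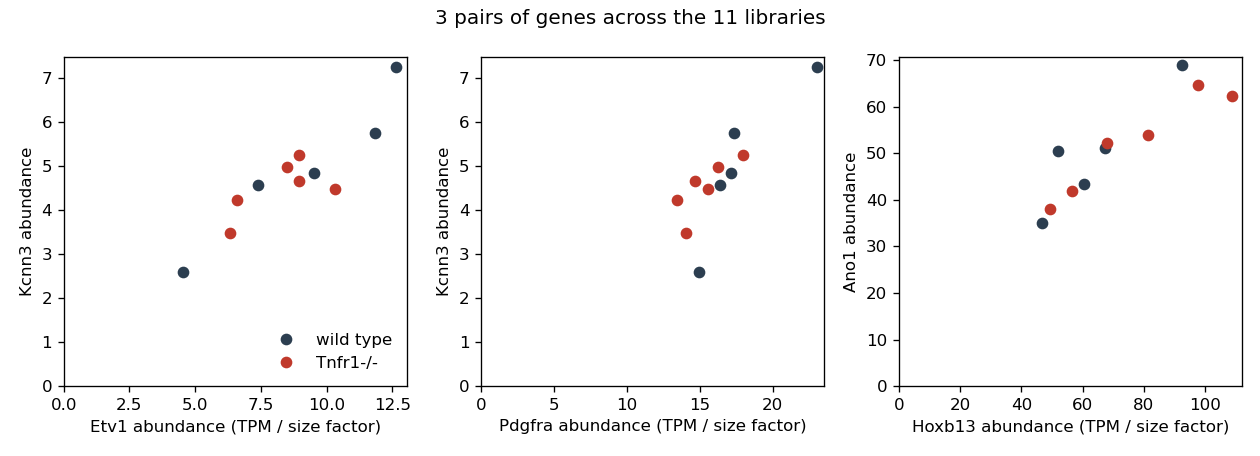
Abundance of Kcnn3 against Etv1 (left) and Pdgfra (middle) and of Ano1 against Hoxb13 (right), 1 point per library, wild type dark and Tnfr1-/- red, axes from 0 (TPM divided by a size factor). Points of both groups lie along the same rising band in each panel, with wild-type library 2 at the bottom for Kcnn3 and at the top for Ano1.

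The genes whose log2 values were most like Kit over the 11 libraries, by Pearson r with group means removed, were Selenom (r = 0.96), Doc2g (0.95), Lyrm4 (0.94), Bex3 (0.93) and Zfp2 (0.93). Those most like Pdgfra were Zfp9 (0.97), Kank2 (0.97), Crispld2 (0.95), Col4a1 (0.95) and Nid1 (0.95), of which Col4a1 and Nid1 encode basement membrane proteins. These are the top ranks of 15079 genes and are given as a description.

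Because Kcnn3 varied with Etv1 and with Pdgfra over the 11 libraries, the 250 bases before the start sites of these genes are shown, from RefSeq on GRCm38.p6, in the direction of the gene. The core motif of ETS factors such as ETV1 was searched as GGAAG and, for the other strand, CTTCC, and matches are in capitals. Overlapping matches were allowed.
Etv1 (chr12:38779832-38780081, plus strand): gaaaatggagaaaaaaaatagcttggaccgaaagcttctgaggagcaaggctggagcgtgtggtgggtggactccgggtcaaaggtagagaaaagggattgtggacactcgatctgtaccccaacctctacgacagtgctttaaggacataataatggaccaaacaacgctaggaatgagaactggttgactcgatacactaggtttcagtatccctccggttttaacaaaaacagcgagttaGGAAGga
Kcnn3 (chr3:89519914-89520163, plus strand): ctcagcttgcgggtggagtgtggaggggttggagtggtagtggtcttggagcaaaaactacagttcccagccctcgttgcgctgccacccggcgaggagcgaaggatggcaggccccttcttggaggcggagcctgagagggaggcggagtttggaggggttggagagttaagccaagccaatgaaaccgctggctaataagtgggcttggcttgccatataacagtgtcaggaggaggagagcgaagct
Pdgfra (chr5:75152001-75152250, plus strand): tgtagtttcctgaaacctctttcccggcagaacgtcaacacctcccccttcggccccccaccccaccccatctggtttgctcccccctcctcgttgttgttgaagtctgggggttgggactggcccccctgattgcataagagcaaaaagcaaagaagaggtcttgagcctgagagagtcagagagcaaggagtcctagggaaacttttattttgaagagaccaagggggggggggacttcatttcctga
In the first of its 2 windows, shown here, Etv1 has 1 match, just before the start, and in the second 0. Kcnn3 and Pdgfra have 0. Of the 7 members with an entry, Ano1, Kit and P2ry1 also have 1 match and Kitl has 3. Of all 32851 windows of this length, 64.1% hold at least 1, so 5 of 7 is near the background. A match is a description of these letters, and its absence says nothing about the factor.

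The wider pathways were read from lists, in which no gene passed the adjusted threshold by limma. KIT signalling, from adaptors to the MAP kinases, had 32 of 32 genes tested, of which 2 were higher and 1 lower in Tnfr1-/- colon at an unadjusted p under 0.05, with a median log2 difference of 0.01. Over all genes tested 634 were higher and 779 lower at that level. Pik3ca, the catalytic subunit of a PI3-kinase, was at 22.0 ± 1.04 (SD, n = 5) in wild type and 25.7 ± 2.75 (SD, n = 6) in Tnfr1-/- colon (limma unadjusted p = 0.0143, adjusted p = 0.429). Map2k2, a kinase that activates ERK, was at 92.8 ± 3.34 and 85.8 ± 3.12 (limma adjusted p = 0.433), and Cblb, a ubiquitin ligase that restrains receptor signalling, at 8.22 ± 0.786 and 9.78 ± 1.30 (limma adjusted p = 0.4996). Genes that respond to ERK, 11 of 11 tested, had 0 at an unadjusted p under 0.05 and a median of -0.01. Among them Spry4 and Spred1, inhibitors of the pathway, had log2 differences of -0.21 and 0.07. Egr1, an immediate early gene, had -0.50 (SE 0.38), with a wild-type SD of 12.9 on a mean of 18.3.

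Of the calcium and chloride genes of the pacemaker, 19 of 24 were tested and 1 had an unadjusted p under 0.05, with a median log2 difference of 0.02. This was Stim1, the sensor that refills calcium stores, at 43.2 ± 4.14 (SD, n = 5) in wild type and 50.5 ± 6.94 (SD, n = 6) in Tnfr1-/- colon (limma unadjusted p = 0.0485, adjusted p = 0.531). Itpr2, a calcium release channel, and Cacna1g, another T-type channel, had log2 differences of 0.15 and 0.17. Of other ICC genes 8 of 9 were tested with 0 at that level and a median of 0.05, and Thbs4, Gpr20 and Prkcq had 0.24, -0.11 and 0.09. Nerve input to these cells, 10 of 12 tested, had 0 and a median of -0.06, with Slc18a3 (vesicular acetylcholine transporter) at -0.31, Prkg1 (the kinase that nitric oxide acts through) at 0.23 and Gucy1b1 (a subunit of the nitric oxide receptor) at -0.13.

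On the side of the PDGFRA-positive cells, the other PDGF genes, 5 of 5 tested, had 0 at an unadjusted p under 0.05 and a median log2 difference of 0.02, and the ligands Pdgfd, Pdgfa and Pdgfc had 0.14, 0.04 and -0.09. The other SK channel genes tested, 2 of 3, were Kcnn4 (-0.15) and Kcnn2 (0.06). Purine signalling, 19 of 23 tested, had 1 at that level and a median of -0.07. Of the 19, 15 were lower in Tnfr1-/- colon, beside 7855 of 15079 over all genes tested. The gene at that level was P2ry6, a receptor for uracil nucleotides, at 12.1 ± 0.524 (SD, n = 5) in wild type and 9.72 ± 1.39 (SD, n = 6) in Tnfr1-/- colon. Its log2 difference was -0.32 (SE 0.09, limma unadjusted p = 0.00587, adjusted p = 0.393), the smallest p of the 19. All 6 Tnfr1-/- values were below all 5 of wild type, and groups did not overlap for 1.49% of all genes tested. P2rx4 and P2rx2, purine-gated channels, had -0.12 and -0.24. Of genes of subepithelial PDGFRA-positive cells, 14 of 14 were tested, 1 had an unadjusted p under 0.05 and the median was 0.04. This was Dlk1, an inhibitor of adipocyte formation, with a log2 difference of 0.62 (SE 0.28, limma unadjusted p = 0.0458, adjusted p = 0.526), a gene that the table lists under 2 identifiers with the same values. Bmp5, a BMP ligand, and Foxl1, a transcription factor of these cells, had -0.15 and -0.19.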

How the data were processed

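RNA of the full-thickness colon of 11 mice was read as stranded, single-end libraries of 75 bases, per the labels' protocols. CASAVA, kallisto, sleuth and the build mm10 are listed in the submitters' processing notes, with no versions given. The values deposited by the authors are a normalized signal per transcript, TPM divided by a size factor. Their p-values and q-values, their natural log (ln) means and their log2 fold changes are in the same deposited table. No count test was run: the plan put a count model first if the columns held counts, but they hold normalized abundance, so its other branch was used.

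Of 113991 lines, repeats of 584 transcripts were dropped, and 97 transcripts without a gene (0.031% of abundance) were left out. Values were summed per gene and tested on log2(value + 0.5), which understates changes of low genes, with limma 3.58.1 in R 4.3.3 (trend, empirical Bayes, two-sided, Benjamini-Hochberg over all 15079 genes, or all 33294 transcripts, at least 1 in 5 libraries). The test was checked on simulated data. Correlations used deviations from group means and 100000 permutations, or all of them where n was under 10, adjusted within each family. Depth was estimated from low values, of which 51.2% to 52.4% came within 0.02 of a whole read. Genes named are the 8 members, Tnfrsf1a, up to 3 genes per list with the smallest p, and the 5 most like Kit or Pdgfra; those of the 112 added relations were named after their values were seen. Members and lists were chosen with earlier results of these data known. Alternatives were other scalings, filters, pseudocounts, weights, a replicate block, and left-out libraries. Python 3.11.15, pandas 2.3.3, numpy 2.4.6, scipy 1.17.1 and matplotlib 3.10.9 were used.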

Additional observations from a re-analysis of the deposited data

Results flagged for a closer look

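Kit in Tnfr1-/- library 2 was at 14.3, far below the nearest Tnfr1-/- library at 19.0. P2ry1 in wild-type library 2 was at 16.9, with the nearest wild-type library at 20.4. The ICC score minus the PDGFRA-positive score was 0.25 in Tnfr1-/- library 1, and the next highest Tnfr1-/- library was at 0.05. Each of these 3 values stood farther from its group than Dixon's 95% limit allows. In all 22 groups of values were checked, and chance flags about 1 in 20, or 1.1 of 22. The cause was not tested.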

How the results depend on the processing

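No member was called under any of the 21 alternatives, and the score difference stayed above 0, at 0.03 to 0.11. Differences near 0 changed sign in some settings, without a call in any, and the cause was not tested. With 1 library left out at a time, the log2 difference ran from -0.13 to 0.026 for Kit, -0.0062 to 0.058 for Kitl, -0.042 to 0.20 for Ano1, -0.30 to 0.049 for Etv1, -0.16 to 0.038 for Cacna1h, -0.27 to 0.058 for Kcnn3 and -0.087 to 0.014 for P2ry1. With the most abundant transcript in place of the sum, it was 0.025 for Kit and 0.17 for P2ry1. Over all features, sample quality weights called 3 genes, leaving out 1 library called 1 to 2 genes and 1 to 10 transcripts, and leaving out wild-type replicates 1 and 2 called 5 transcripts. At an unadjusted p under 0.05, 634 genes were higher and 779 lower, against 646 and 506 with columns rescaled to TPM. Pair correlations past the threshold numbered 1 with group means left in, 0 without wild-type replicates 1 and 2, and 1 to 10 over the 11 settings that left out 1 library. Marker relations numbered 2 and 0 in the first and second of these settings. The 112 added relations had 5 and 1 there, and 4 to 11 without wild-type replicate 2 or Tnfr1-/- replicate 2. In the main test samples were not paired by replicate number. Deviations of same-numbered samples had r from -0.22 to 0.38, and 3 of 10 samples correlated best with their own number. Whether the numbers mark pairs was not tested. With the replicate block, 0 members, 1 gene and 2 transcripts were called, and the score difference was 0.09. Counting error was at most 4.67% of a member's value, and none was computed for shares of single transcripts.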
